A study of Mus musculus with 4 samples.

Results

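The 7 chemokine receptor genes Ccr1, Ccr2, Ccr7, Cxcr2, Cxcr4, Cx3cr1 and Ccrl2, together with Cx3cl1, the gene of the ligand fractalkine, were followed in the skin of mice lacking gasdermin D (GSDMD). They were picked by gene symbol, and all 8 symbols were found among the 24441 rows of the deposited table. The skin came from female C57BL/6 mice, aged 8 weeks per the labels, that had received bleomycin (BLM) under the skin every other day for 28 days, a treatment that causes scleroderma-like fibrosis at the injected site. The 2 WT libraries came from mice with intact Gsdmd, and the 2 KO libraries from GSDMD-/- mice made by injecting Cas9 mRNA and a guide RNA into C57BL/6 eggs, a change not limited to one cell type. Both groups had received BLM, and saline-treated skin was not analysed here. The labels do not say that the libraries of a group were separate animals, so the p-values measure only the spread between these libraries.

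Chemokines are small secreted proteins that leukocytes follow into tissue. Their receptors span the membrane 7 times and couple to inhibitory G proteins, and each leukocyte type carries its own set. Ccr2 brings inflammatory monocytes out of the bone marrow and into injured tissue, Ccr1 serves monocytes and neutrophils, Cxcr2 is the main neutrophil receptor, Ccr7 leads dendritic cells and T cells to lymph nodes, and Cxcr4 holds cells near sources of Cxcl12. Cx3cr1 marks patrolling monocytes and many tissue macrophages, and its ligand Cx3cl1 is made mostly by epithelial and endothelial cells as a membrane protein that can be shed. Ccrl2 belongs to the same family but binds chemerin and does not signal like the others.

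Values are FPKM, fragment numbers scaled to transcript length and to the depth of the library, as the authors deposited them. Fold changes are those of log2(FPKM + 1), so that differences in low genes come out too small, and were tested with limma in the 13023 genes that reached 1 FPKM in at least 2 libraries. Depth is not given in the table, but low values rise in steps of 1 fragment, from which a depth was estimated at which 1 fragment on a transcript of 1 kb reads 0.0578 to 0.0782 FPKM. The floor taken here, 3 fragments on such a transcript, is then 0.173 to 0.235 FPKM, and covers counting error only. Gsdmd itself had 14.0 and 18.2 FPKM in WT skin against 3.53 and 2.26 FPKM in KO skin. KO replicate 2 stood apart from the other libraries. It lay at 75.4 on the first principal component, which held 74.1% of the variance, against 6.16 in KO replicate 1 and -27.7 and -53.9 in WT replicates 1 and 2. It was also the only library with Y-linked genes above 0, namely 4 of 15 with a sum of 1.78 FPKM, although the mice are described as female. The differences of the 8 genes are therefore also given without it.

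Of the 8 genes, 4 lie on chromosome 9, and Ccr1 and Ccr2 sit in a cluster of receptor genes there. In mm9, Ccr1 spans chromosome 9 from 123876959 to 123883525 and Ccr2 from 124016922 to 124023879. Receptor genes of such clusters are alike in sequence, and how the authors' counting treated reads that match more than 1 of them is not given in the sources used here, so the values of Ccr1 and Ccr2 are uncertain to that extent. Exons of other annotated genes overlapped none of the 8 genes.

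Sequence before the start site was at hand from RefSeq (GRCm38.p6) for 7 of the 8 genes, the exception being Ccr7. The number of CpG dinucleotides in the 250 bases before the start separates them. It was 1 in Ccr1, Ccr2 and Cxcr2, 4 in Cx3cr1, 5 to 7 at the 3 starts of Ccrl2, 14 in Cx3cl1 and 19 in Cxcr4, while the median over 32851 promoters was 6. Ccr1 and Cxcr4 are shown because their values across the 4 libraries were alike (distance given further on) while their start regions held 1 and 19 CpG, and CpG are in capitals. Of all promoters, 18.8% had no more CpG than Ccr1 and 82.1% no more than Cxcr4. That of Ccr1 lies on the minus strand at chr9:123968693-123968942 and that of Cxcr4 on the minus strand at chr1:128592300-128592549.
Ccr1: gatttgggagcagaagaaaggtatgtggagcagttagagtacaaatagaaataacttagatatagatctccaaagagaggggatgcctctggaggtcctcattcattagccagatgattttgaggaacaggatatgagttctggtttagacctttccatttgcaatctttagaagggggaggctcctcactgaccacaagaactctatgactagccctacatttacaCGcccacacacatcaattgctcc
Cxcr4: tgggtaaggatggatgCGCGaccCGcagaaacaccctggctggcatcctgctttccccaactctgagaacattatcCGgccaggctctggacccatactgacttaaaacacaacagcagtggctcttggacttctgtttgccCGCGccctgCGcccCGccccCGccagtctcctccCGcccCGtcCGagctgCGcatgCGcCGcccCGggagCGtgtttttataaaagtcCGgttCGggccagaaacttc
The hexamer GAGGAA, the core of the sites bound by the myeloid factor PU.1, occurred on either strand once in Ccr1 and Cxcr2 and at 2 places in Cx3cl1, and 23.3% of all promoters held it. It was not found in these windows of Ccr2, Cxcr4, Cx3cr1 or Ccrl2. A match is only a match of letters.

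The receptors of the monocyte chemokines, Ccr1 and Ccr2, had lower values in KO skin, and on the log2(FPKM + 1) scale 0.768% and 0.668% of tested genes had a fold change as low or lower. By the plain ratio of group means, KO skin held 16.9% of the WT level for Ccr1 and 23.4% for Ccr2, and the lowest of the 8 genes was Ccr7 at 13.7%. Ccr1 had 13.9 and 14.7 FPKM in WT, 4.07 FPKM in KO replicate 1 and 0.778 FPKM in KO replicate 2. The WT libraries were close together, and both KO libraries lay well below them, with KO replicate 2 at 5.44% of the WT mean and KO replicate 1 at 28.5%. The log2 fold change of Ccr1 was -2.35 (standard error 0.53, 95% interval -3.69 to -1.01, unadjusted p = 0.00628, adjusted p = 0.248 by limma). Ccr2 was the most abundant of the 8 genes in WT skin, with 27.0 and 17.8 FPKM there, 9.77 FPKM in KO replicate 1 and 0.708 FPKM in KO replicate 2. Its KO libraries did not reach the WT range either, but they differed from each other 13.8-fold, more than for any other of the 8 genes. The log2 fold change of Ccr2 was -2.42 (standard error 0.88, 95% interval -4.67 to -0.17, adjusted p = 0.278 by limma). Without KO replicate 2 it was -1.09 for Ccr2 and -1.59 for Ccr1, and without KO replicate 1 it was -3.75 and -3.11. Such a fit leaves a lone KO library, which is assumed to vary like the WT libraries.

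Of the 5 ligands of Ccr1 that were listed for it, Ccl3, Ccl5, Ccl6, Ccl7 and Ccl9, all 5 were lower in KO skin and 4 had an unadjusted p under 0.05 with a log2 fold change below -1. Of all tested genes, 41.4% were lower and 4.14% met this rule. Among the 5 ligands the largest difference was in Ccl3, at -3.04 (standard error 0.35, adjusted p = 0.248 by limma), and the smallest in Ccl7, at -1.23. Ccr2 and its ligands Ccl2, Ccl7 and Ccl12 were lower as well, and of the ligands 1 of 3 met that rule, namely Ccl2 at -1.68 (standard error 0.27, adjusted p = 0.248 by limma). Ccl2 differed from its receptor in KO replicate 2. There were 3.06 and 3.32 FPKM of Ccl2 for each FPKM of Ccr2 in WT, 2.22 in KO replicate 1 and 29.2 in KO replicate 2, the library with the least Ccr2.

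**Figure D1:**
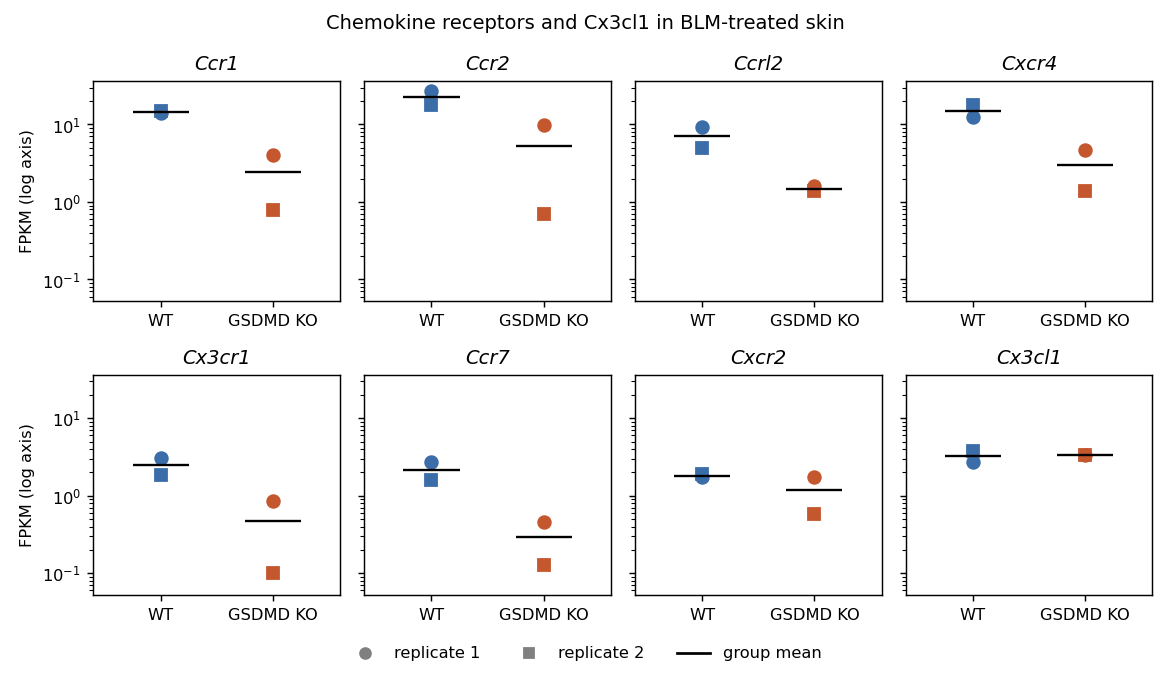
FPKM of the 8 genes on a log axis for the 2 WT and the 2 GSDMD KO libraries, with circles for replicate 1, squares for replicate 2 and a line at the group mean. Both KO libraries lie below both WT libraries in 6 genes, as they do in 20.5% of all tested genes. KO replicate 2 is the lower KO library in these 6, and Cx3cl1 stays between 2.74 and 3.75 FPKM throughout.

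Ccrl2, the chemerin-binding receptor on chromosome 9 from 110957338 to 110960022, differed from the other receptors in that the KO libraries were alike. It had 9.22 and 4.99 FPKM in WT skin against 1.60 and 1.38 FPKM in KO skin. The spread was on the WT side, 1.85-fold between the libraries, and both KO libraries lay under the lower WT value. Its log2 fold change of -1.65 (standard error 0.34, 95% interval -2.51 to -0.79, unadjusted p = 0.00417, adjusted p = 0.248 by limma) had the lowest unadjusted p of the 8 genes. It was -1.59 without KO replicate 2, -1.72 without KO replicate 1, and -1.27 without WT replicate 1. Rarres2, which encodes chemerin, had 73.8 and 114 FPKM in WT, 83.5 FPKM in KO replicate 1 and 11.1 FPKM in KO replicate 2, so its groups overlapped (adjusted p = 0.412 by limma). Cmklr1, the signalling receptor of chemerin, had 11.0 and 20.5 FPKM in WT skin against 8.71 and 1.24 FPKM in KO skin (log2 fold change -1.79, standard error 0.75, adjusted p = 0.305 by limma).

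Cxcr4, on chromosome 1 from 130484776 to 130488876, had 12.5 and 17.7 FPKM in WT skin against 4.68 and 1.38 FPKM in KO skin. The groups did not overlap, and KO replicate 2 was again the lowest library. The log2 fold change was -2.11 (standard error 0.48, 95% interval -3.33 to -0.89, unadjusted p = 0.00661, adjusted p = 0.248 by limma). Leaving out KO replicate 2 gave -1.48 and leaving out KO replicate 1 gave -2.74. Its ligand Cxcl12, a product of fibroblasts and endothelial cells, had 33.2 and 56.7 FPKM in WT, 52.5 FPKM in KO replicate 1 and 20.6 FPKM in KO replicate 2. These groups overlapped (log2 fold change -0.39, standard error 0.52, adjusted p = 0.695 by limma). For each FPKM of Cxcr4 there were 2.67 and 3.20 FPKM of Cxcl12 in WT and 11.2 and 15.0 in KO libraries.

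In the fractalkine pair the receptor, but not the ligand, had lower values in both KO libraries. The receptor Cx3cr1, on chromosome 9 from 119957801 to 119977414, had 3.12 and 1.86 FPKM in WT skin against 0.853 and 0.102 FPKM in KO skin. Neither KO library reached the WT range, and the value of KO replicate 2 rests on an estimated 4.88 fragments. The log2 fold change of Cx3cr1 was -1.26 (standard error 0.37, 95% interval -2.20 to -0.325, adjusted p = 0.248 by limma). Leaving out KO replicate 2 gave -0.89 and leaving out KO replicate 1 gave -1.64. The ligand Cx3cl1, on chromosome 8 from 97296080 to 97306326, had 2.74 and 3.75 FPKM in WT skin against 3.40 and 3.39 FPKM in KO skin. Both KO values lay inside the WT range and were nearly equal, although KO replicate 2 differed from KO replicate 1 in most of the other 7 genes. The log2 fold change of Cx3cl1 was 0.06 (standard error 0.26, 95% interval -0.592 to 0.715, adjusted p = 0.910 by limma), and without KO replicate 2 it was also 0.06. Its sign turned with median-ratio factors (-0.046), with upper-quartile factors (-0.019) and without WT replicate 1 (-0.11), so no direction can be given. For each FPKM of Cx3cr1 there were 0.878 and 2.02 FPKM of Cx3cl1 in WT and 3.98 and 33.2 in KO libraries. Of the proteases known to cut fractalkine from the membrane, Adam10 and Adam17 were above WT in both KO libraries, by 0.47 and 0.25 on the log2 scale (adjusted p = 0.454 and 0.571 by limma). The third, Ctss, a cathepsin of macrophages and other antigen-presenting cells, had 429 and 367 FPKM in WT skin against 108 and 10.3 FPKM in KO skin (log2 fold change -3.50, standard error 1.05, adjusted p = 0.248 by limma).

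Ccr7, on chromosome 11 from 99005513 to 99016391, was expressed at a low level, with 2.73 and 1.58 FPKM in WT skin against 0.463 and 0.129 FPKM in KO skin. The groups did not overlap, but only an estimated 12.5 and 3.25 fragments stood behind the KO values, the second of which is close to the floor of 3 fragments. Its log2 fold change was -1.27 (standard error 0.31, 95% interval -2.06 to -0.49, adjusted p = 0.248 by limma). Leaving out KO replicate 2 gave -1.09 and leaving out KO replicate 1 gave -1.46. Ccl19 and Ccl21, the ligands of Ccr7, are made by stromal and lymphatic cells. Of the 4 genes listed, Ccl19, Ccl21a, Ccl21b and Ccl21c, 1 was tested: Ccl21a had 1.50 and 1.44 FPKM in WT, 7.34 FPKM in KO replicate 1 and 0.215 FPKM in KO replicate 2, and its groups overlapped. The Ccl21 genes are near-identical copies among which the authors' counting could have split fragments. Ackr4, a scavenging receptor that removes these ligands, was the tested receptor with higher values in both KO libraries, at 3.23 and 2.43 FPKM in WT skin against 7.37 and 25.9 FPKM in KO skin (log2 fold change 1.98, standard error 0.58, unadjusted p = 0.0187, adjusted p = 0.248 by limma).

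Cxcr2, on chromosome 1 from 74200568 to 74207820, was the receptor whose groups overlapped. It had 1.73 and 1.92 FPKM in WT, 1.76 FPKM in KO replicate 1 and 0.590 FPKM in KO replicate 2. The WT libraries and KO replicate 1 were thus alike and KO replicate 2 was lower, at an estimated 16.8 to 22.9 fragments depending on the transcript. The log2 fold change was -0.43 (standard error 0.34, 95% interval -1.30 to 0.44, adjusted p = 0.511 by limma), and leaving out KO replicate 2 gave -0.033 and leaving out KO replicate 1 gave -0.83. Its ligands, which draw in neutrophils, had lower values in KO skin in 5 of 5 genes, against 41.4% of all tested genes. Of them 3, Cxcl2, Cxcl3 and Cxcl5, met the rule of an unadjusted p under 0.05 and a log2 fold change below -1, which 4.14% of tested genes met. Cxcl5 and Ppbp were tested only because both WT libraries reached 1 FPKM, so their place in these counts is not independent of the filter. Cxcl3 and Cxcl2 differed most, by -4.16 and -3.52 on the log2 scale (adjusted p = 0.189, limma, in both cases) and are close in sequence, so that fragments could have been shared between them. Cxcl1, the exception to the order, had 6.40 and 13.4 FPKM in WT skin against 2.97 and 6.82 FPKM in KO skin. Of 10 neutrophil markers listed, 4 were tested, S100a8, S100a9, Csf3r and Retnlg, and all 4 were lower by the same rule. The 6 markers that were not tested were low and mixed. Ly6g and Mpo were at 0 in both KO libraries, with at most 0.238 and 0.0278 FPKM in WT, near or under the floor, while Camp reached 2.51 FPKM in KO replicate 1 against 0.315 and 0.348 FPKM in WT skin, and Elane, Ltf and Ngp each had a KO library above both WT libraries.

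**Figure D2:**
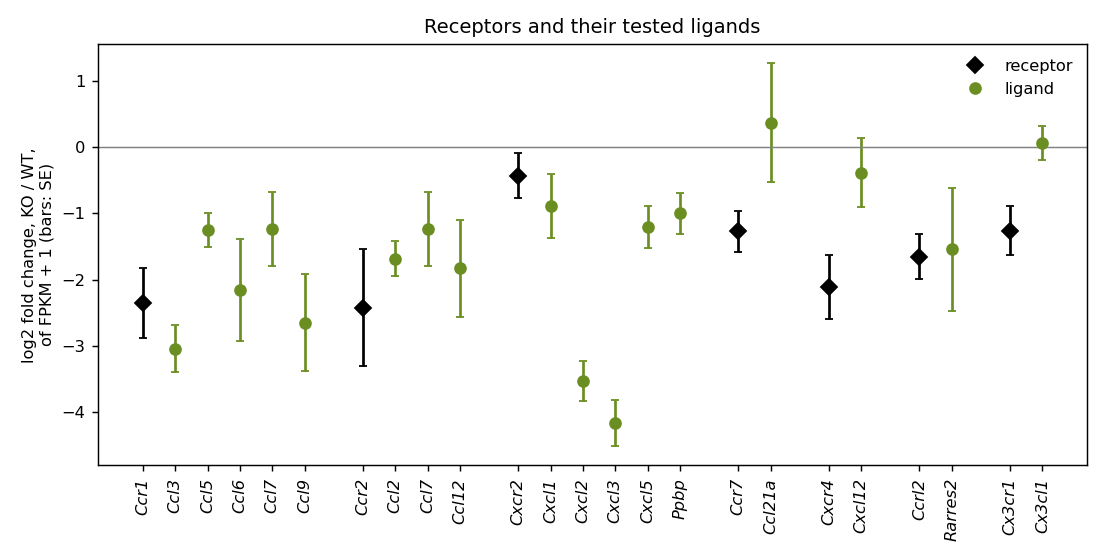
Log2 fold changes (KO over WT, of FPKM + 1) with standard errors for each receptor (diamonds) and its tested ligands (circles). The ligands of Ccr1, Ccr2 and Cxcr2 lie below 0, whereas Ccl21a, Cxcl12 and Cx3cl1 lie within 1 standard error of it while their receptors do not.

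Across the 8 genes, 6 were lower in KO skin with an unadjusted p under 0.05 and a log2 fold change below -1, a rule that 4.14% of all tested genes met, and 0 were higher by the same rule, which 6.16% met. A log2 fold change below 0 of any size was found in 7 of the 8, against 41.4% of tested genes. The same 6, Ccr1, Ccr2, Ccr7, Cxcr4, Cx3cr1 and Ccrl2, had both KO libraries below both WT libraries, as did 20.5% of tested genes, and 0 had both KO libraries above both WT libraries, as did 35.3%. Ccr7 and Cx3cr1 were tested only because both WT libraries reached 1 FPKM, so their place in these counts is not independent of the filter. Of the other 6, which passed with 3 or 4 libraries, 4 met the rule. The median log2 fold change of the 8 genes was -1.46, against 0.11 over all tested genes. The study's threshold asked for a log2 fold change beyond 1 in either direction at an adjusted p under 0.05, and limma called 0 of the 8 and 0.0% of all tested genes by it, while 2230 genes had an unadjusted p under 0.05. An exact two-sided permutation test over 2 libraries per group has 0.333 as its smallest p, and it gave 0.333 for the 6 genes, 0.667 for Cxcr2 and 1.0 for Cx3cl1. Of all tested genes, 539 were lower and 802 higher by the first rule, and median-ratio factors turned this split to 700 lower and 614 higher, with the median of all genes at -0.0061. With these factors 6 of the 8 still met the rule, and the median of the 8 genes was -1.54. Without WT replicate 1, the count by this rule was 3 of 8.

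**Figure D3:**
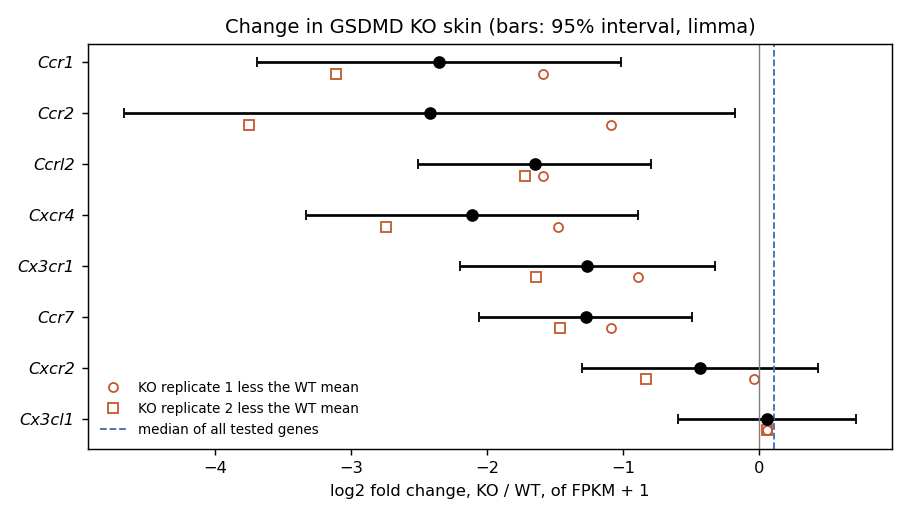
Log2 fold change of each gene in GSDMD KO skin with its 95% interval from limma (filled points and bars), and each KO library less the WT mean (open circle, KO replicate 1; open square, KO replicate 2). The intervals of 6 genes lie below 0 and those of Cxcr2 and Cx3cl1 include it, and the dashed line marks the median of all tested genes at 0.11. Of the 13023 tested genes, 2230 had an unadjusted p under 0.05 by limma, in either direction.

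The order of the mean levels was not the same in the 2 groups. In WT skin Ccr2 stood first with a mean of 22.4 ± 6.50 FPKM (SD, n = 2), followed by Cxcr4 (15.1 ± 3.73), Ccr1 (14.3 ± 0.611), Ccrl2 (7.10 ± 2.99), Cx3cl1 (3.24 ± 0.719), Cx3cr1 (2.49 ± 0.888), Ccr7 (2.16 ± 0.810) and Cxcr2 (1.83 ± 0.132). Cxcr4 and Ccr1 were not separated by their libraries, nor were the neighbours among the last 4, while Ccr2, Ccr1 and Ccrl2 each lay above the gene that followed. In KO skin Cx3cl1 came second, at 3.40 ± 0.00410 FPKM (SD, n = 2), after Ccr2 at 5.24 ± 6.41, and Ccr7 was last at 0.296 ± 0.236. There, every gene overlapped with the next in the order.

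The receptors also differed in how they varied among the 4 libraries. Profiles were compared as the distance between log2(FPKM + 1) values, each centred on its own mean. Ccr7 and Cx3cr1 were closest to each other (0.266), followed by Ccr1 and Cxcr4 (0.409) and by Ccr7 and Ccrl2 (0.453), while Ccr2 and Cx3cl1 were farthest apart (3.18). The 3 tested genes nearest to Ccr1 were Chil3, Tbxas1 and Myo1f (distances 0.226 to 0.242), and those nearest to Ccr2 were Ptafr, Lsp1 and Cd52 (0.257 to 0.378). For Cxcr4 they were Fxyd5, Pik3r5 and Csf2ra (0.128 to 0.161), and for Ccrl2 they were Ccl2, Bglap2 and S100a8 (0.216 to 0.330). Ccr7 was nearest to Prkag3, A630033H20Rik and Clec5a (0.0647 to 0.0905), and Cx3cr1 to Msln, Myl4 and Oasl2 (0.175 to 0.234). For the 2 genes with overlapping groups the nearest were Hdac5, Vps13c and Fn3k for Cxcr2 (0.0415 to 0.0492) and Fbxo18, Gnb1 and Zfp513 for Cx3cl1 (0.0325 to 0.0399). With 4 libraries such likeness is a description.

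Many other receptors of the family were too low to test. Cxcr3 of activated T cells had at most 1.17 FPKM, Ccr4 at most 1.42 FPKM and Cxcr6 at most 0.701 FPKM in any library, and none of the 3 reached 1 FPKM in 2 libraries. The signalling machinery was uneven. Of 10 genes that carry chemokine signals to the cytoskeleton of leukocytes, 8 were lower by the rule of an unadjusted p under 0.05 and a log2 fold change below -1. Of all tested genes 4.14% met it, and the median of the 10 was -1.81. The 8 were Pik3r5, Prex1, Dock2, Rac2, Vav1, Was, Coro1a and Fermt3, of which Coro1a is also a pan-leukocyte marker below. Rac2, the Rac protein of blood cells, had 12.4 and 21.5 FPKM in WT skin against 6.06 and 1.03 FPKM in KO skin (log2 fold change -2.20, standard error 0.65, adjusted p = 0.248 by limma). Of 12 genes for the inhibitory G proteins and for receptor desensitisation, most of which are used by many cell types, 11 were tested and 1 met the rule, Rgs16, at -1.49 (standard error 0.42, adjusted p = 0.248 by limma). Their median was -0.48, and Gnai3 was the one of them with higher values in KO skin, at 0.69.

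Markers of cells that carry these receptors were counted by the same unadjusted rule, which 4.14% of all tested genes met as lower in KO skin and 6.16% as higher. The 5 pan-leukocyte markers Ptprc, Coro1a, Laptm5, Cd53 and Lcp1 were lower in 5 of 5, with a median log2 fold change of -2.38, and summed to 236 and 332 FPKM in WT skin against 104 and 15.7 FPKM in KO skin. Of 10 macrophage markers 5 met the rule (with sums of 665 and 846 FPKM in WT skin against 366 and 33.3 FPKM in KO skin), and of 6 monocyte markers 2 did. The T cell list was mixed, with 1 of 4 tested genes meeting the rule, Cd2, and a median of -0.18, and 0 of 4 B cell markers were tested. Of the 7 dendritic and Langerhans cell markers tested, 1 was lower, Cd209a, and 1 higher, Epcam, which keratinocytes also express. In bulk skin, fewer cells of a type and less RNA per cell cannot be told apart.

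The KO libraries differed in the rest of the tissue as well. Fibroblast markers summed to 188% of the WT mean in KO replicate 1 and to 11.1% in KO replicate 2, endothelial markers to 109% and 9.44%, and mast cell markers to 144% and 16.2%. Keratinocyte markers summed to 251% and 120%, and skeletal muscle markers to 63.3% and 67.7%. The keratinocyte sum of KO replicate 2 hid opposite differences. Krt5 and Krt14 (1664 and 2735 FPKM) lay above both WT libraries there, Krt1, Krt10 and Lor (280, 266 and 155 FPKM) below both, and Ivl between them. Hair follicle markers summed to 315 FPKM in KO replicate 1 and to 8.32, 0.764 and 7.87 FPKM in WT replicates 1 and 2 and KO replicate 2. Low values of the 6 receptors in KO replicate 2 thus went with low sums of the fibroblast, endothelial and mast cell lists. The pan-leukocyte, macrophage, monocyte, neutrophil, T cell and B cell sums were low there as well. The dendritic and Langerhans cell sum, which includes Epcam, was not, at 199% of the WT mean. The part of these differences in the result was not tested. In KO replicate 1 the fibroblast, endothelial and mast cell lists were not below the WT mean. The same 6 receptors stood at 21.5% to 43.6% of their WT means in that library, the pan-leukocyte sum at 36.5% and the macrophage sum at 48.4%. The B cell sum was at 26.8%, the neutrophil sum at 44.8% and the monocyte sum at 60.6%. The T cell sum was at 94.9% and the dendritic and Langerhans cell sum at 187%.

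Set against the leukocyte markers of their own library, the 6 receptors differed less between the groups than on their own. The markers were lower in KO libraries too, so for any gene lower by a similar amount such a shrinkage follows from the division. The log2 ratio of FPKM to the geometric mean of the 5 pan-leukocyte markers differed between KO and WT by -0.34 for Ccr1, -0.39 for Ccr2, -0.42 for Ccr7, -0.36 for Cx3cr1, 0.12 for Cxcr4 and 0.48 for Ccrl2. In 5 of these 6 the KO and WT libraries overlapped, and Ccr1 was the exception, at -1.34 and -1.46 in WT and -1.80 and -1.67 in KO libraries. Cxcr2 and Cx3cl1 were instead higher relative to these markers in both KO libraries, by 1.83 and 2.76. The log2 mean of the markers itself differed by -2.67 between KO and WT libraries, so a gene with equal levels in both groups would come out higher by the size of that difference. Relative to 10 macrophage markers, Ccr1 and Cx3cr1 had both KO libraries below both WT libraries, by -0.65 and -0.67, and the other 4 overlapped. Among those 4 the mean difference was larger for Ccr7 (-0.737) and Ccr2 (-0.705), and it was -0.195 for Cxcr4 and 0.163 for Ccrl2. These ratios were set up after the values had been seen and were not tested. The share of all tested genes whose groups separate on them was not computed, so the counts of overlapping genes have no background.

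**Figure D4:**
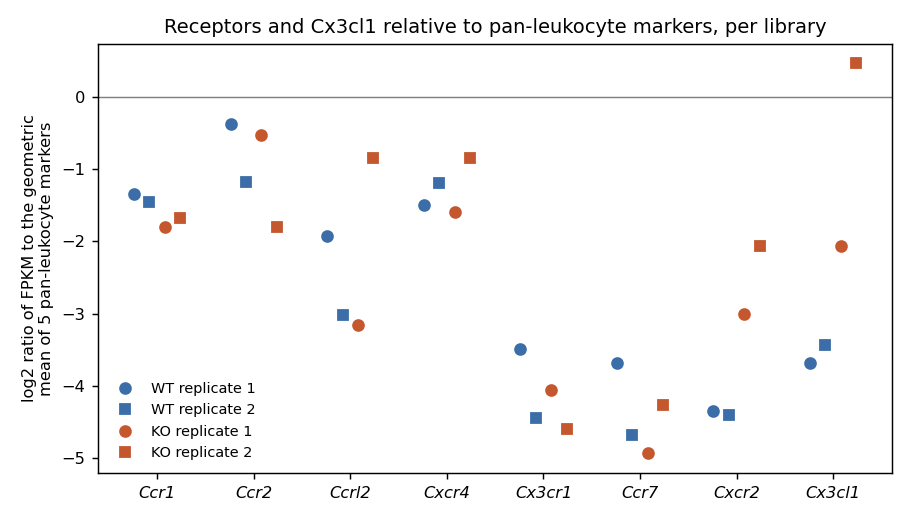
Log2 ratio of each gene's FPKM to the geometric mean of 5 pan-leukocyte markers in the same library, for WT (blue) and KO (orange) libraries. The KO and WT libraries overlap for Ccr2, Ccrl2, Cxcr4, Cx3cr1 and Ccr7, differ little for Ccr1 (-0.34), and separate upwards for Cxcr2 (1.83) and Cx3cl1 (2.76). The log2 mean of the markers itself differed by -2.67 between KO and WT. The share of all tested genes that separate on this ratio was not computed.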

How the data were processed

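RNA from BLM-treated skin of WT and GSDMD KO mice was analysed in 4 libraries, 2 per group by their labels. Per the labels and the study's methods, alignment was to mm9 (HISAT2 version 2.0.1), and StringTie version 2.0.6 is also listed. For read counts the study's methods name featureCounts and its union option. The deposited table, named as counts, holds FPKM values made by the authors (99.993% of values above 0 are not whole), and the step that made them is not given in the sources used here. No count model was therefore used. Of 20310 genes found in the mm9 annotation by symbol, 99.2% overlapped their annotated locus. Listed starts were raised by 1 base to count from 1, and 4 rows sharing 2 symbols were left out.

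Values were taken as log2(FPKM + 1), and the 13023 genes that reached 1 FPKM in 2 or more libraries entered limma (3.58.1, under R 4.3.3) with a mean-variance trend and Benjamini-Hochberg adjustment over all of them. The script was tested on simulated data. Depth was estimated from 3439 genes with a single coding transcript of at least 2 kb, is approximate, and carries no interval. Python 3.11.15 with pandas 2.3.3 wrote the tables.

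The 8 genes and all lists were chosen with earlier results of these data known. Named are the 8 genes, Gsdmd, list genes where a list is described, and the 3 genes nearest in profile to each of the 8. One item among the listed genes is not reported here. Alternatives were pseudocounts, filters, scalings, the variance trend, a replicate block and leaving out each library.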

Additional observations from a re-analysis of the deposited data

How the results depend on the processing

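Of the 8 genes, 7 kept the sign of their log2 fold change under all 14 alternatives. Cx3cl1 turned to -0.046 with median-ratio factors, -0.019 with upper-quartile factors, and ranged from -0.11 without WT replicate 1 to 0.235 without WT replicate 2. The count of genes called at the study's threshold stayed at 0, also with no limit on the fold change, except that leaving out 1 library at a time gave 0 to 2064 calls: 2064 without KO replicate 1 and 43 without KO replicate 2. Without KO replicate 1, where the lone KO library is assumed to vary like WT, 6 of the 8 genes were called, Ccr7 at an adjusted p of 0.0307 by limma, Cx3cr1 at 0.0207 and Ccrl2 at 0.0263 among them. Without KO replicate 2, where the same holds for KO replicate 1, 0 of the 8 were called, with adjusted p-values of 0.132 to 0.989 by limma. Genes that met the unadjusted rule (p under 0.05, log2 fold change beyond 1 either way) numbered 508 to 3015 with 1 library left out, against 1341 with all 4. Of the 8 genes, 6 were lower by that rule, 5 with a pseudocount of 0.1 or without the filter on low values, and 3 to 6 with 1 library left out. Their median log2 fold change was -1.46, -2.50 with a pseudocount of 0.1 (by construction, since a smaller pseudocount compresses low values less) and -1.71 to -1.09 with 1 library left out.

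The deviations of same-numbered WT and KO libraries correlated at -0.20 over 13023 genes, and no source says what a shared number stands for, so no pairing was assumed. With the replicate block 0 genes were called and 1593 met the unadjusted rule, 6 of the 8 among them, so it changed no call. With the crossed replicate block, chosen after seeing the data, 0 genes were called, and 680 lower and 819 higher genes met that rule, 5 of the 8 among them. Depth limits Ccr7 and Cx3cr1, whose values in KO replicate 2 rest on an estimated 3.25 and 4.88 fragments.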
